A study of Homo sapiens with 6 samples.

Results

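The transcripts described here come from the mitochondrial genome itself. They are all rows that the deposited table places on chromosome M, 15 of the 21494 genes in the table, and they comprise the 13 mRNAs and 2 rRNAs of human mitochondrial DNA. The set was put forward because its share of the counts was already known to be higher in the knockdown samples. The genes were thus selected on measured values of the same contrast, so every difference between the groups in these genes is given as a description and no p-value is attached to it. GENCODE 44 also annotates 22 mitochondrial tRNA genes, which are shorter than the shortest gene of the table (150 bases) and were not analysed here. The samples are labelled as G361, an established human melanoma line, with 3 libraries from cells carrying a control shRNA (Control sh, genotype given as WT) and 3 from cells with stable lentiviral knockdown of DCAF1, the gene for VprBP (VprBP sh, genotype given as DCAF1 Knockdown). Per the study's methods, the cell lines were selected with puromycin after infection. A single shRNA sequence against VprBP is given there, and infection and selection of the control cells are not described separately. LD611 is named as the source of the cells in the same labels.

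Human mitochondrial DNA is a small circle that is copied and transcribed inside the organelle by nuclear-encoded enzymes. Both strands are transcribed as long precursors, and most mRNAs and both rRNAs are separated from each other by tRNAs that are cut out of the precursor, a layout known as tRNA punctuation. The mRNAs encode core subunits of complexes I, III and IV of the respiratory chain and of ATP synthase. All other subunits, complex II and the proteins of mitochondrial gene expression are encoded in the nucleus. Most mitochondrial mRNAs carry short poly(A) tails, MT-ND6 is known as the mRNA that lacks one, and the rRNAs carry only very short ones. The libraries were made from mRNA captured by poly(A) according to the methods, so levels of different classes of transcript depend on capture as well as on abundance.

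The reference sequences around the gene boundaries are shown because they set which transcripts can be told apart by 50-base reads. They are from hg38, are written 5′ to 3′ on the plus strand of the assembly and are not reads of these cells. In the first pair, capitals mark the tRNA that separates both rRNAs and the tRNA that separates MT-RNR2 from MT-ND1.
MT-RNR1, MT-TV and MT-RNR2 (chrM:1582-1690): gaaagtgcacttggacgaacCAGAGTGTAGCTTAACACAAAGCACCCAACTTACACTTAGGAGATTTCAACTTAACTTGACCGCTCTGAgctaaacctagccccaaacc
MT-RNR2, MT-TL1 and MT-ND1 (chrM:3210-3326): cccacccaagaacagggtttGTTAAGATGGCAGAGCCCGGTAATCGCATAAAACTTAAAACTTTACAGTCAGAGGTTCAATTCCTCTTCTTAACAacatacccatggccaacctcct
In 2 places adjacent genes without a tRNA between them share several bases, which are in capitals in the next pair, 46 bases of MT-ATP8 and MT-ATP6 and 7 bases of MT-ND4L and MT-ND4. MT-ATP6 and MT-CO3 share base 9207. The first 2 pairs are known to be translated from joint mRNAs, so the counts of MT-ATP8 and MT-ND4L are those that the authors' counting gave to one of 2 genes on the same RNA.
MT-ATP8 and MT-ATP6 (chrM:8507-8592): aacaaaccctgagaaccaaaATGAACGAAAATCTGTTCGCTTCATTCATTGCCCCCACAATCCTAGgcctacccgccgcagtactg
MT-ND4L and MT-ND4 (chrM:10740-10786): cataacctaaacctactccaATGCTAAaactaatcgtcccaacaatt
MT-ND5 and MT-ND6 end against each other on opposite strands without sharing a base, with the end of MT-ND6 in capitals here, so that their reads can be told apart at this boundary only where strand was used. Both strands are transcribed as long precursors, so the same holds for reads within MT-ND6. Whether counting used strand is not given in the sources used here, and the counts of MT-ND6 may include transcripts of the other strand.
MT-ND5 and MT-ND6 (chrM:14119-14178): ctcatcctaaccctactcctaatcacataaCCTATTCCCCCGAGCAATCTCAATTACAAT
In 6 of the 13 mRNAs the coding length is not a multiple of 3, and the stop codon is known to be completed by the poly(A) tail. Of these, the last 15 bases of MT-ND1, MT-ND3 and MT-CYB are given with the incomplete stop codon in capitals, as the 3′ ends to which the captured tail is joined.
MT-ND1 end (chrM:4248-4262): tccccctcaaaccTA
MT-ND3 end (chrM:10390-10404): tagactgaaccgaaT
MT-CYB end (chrM:15873-15887): tactcaaatgggccT

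Several facts of the whole series bear on these genes. Total counts ran from 18195926 to 26883925 per sample and overlapped between the groups. DCAF1 had 688, 893 and 884 counts in Control sh against 681, 488 and 628 in VprBP sh, and after scaling fell by 0.58 on the log2 scale (standard error 0.17, edgeR adjusted p = 0.0125), which is less than 2-fold. Of 8 melanocyte lineage markers, 4 could be read, with a summed level of 8.46 to 9.85 CPM (counts scaled to the total of each library) in Control sh against 11.9 to 15.2 in VprBP sh. MLANA and TYRP1, which encode melanosome proteins, had at most 5 counts in any sample. TYR, DCT, SOX10 and S100B were looked for and have no row in the deposited table, where the lowest sum of a row is 9 counts. In contrast, 10 of 11 urothelial and epithelial markers could be read, with a summed level of 7606 to 8016 CPM in Control sh against 3754 to 5343 in VprBP sh, which goes against the melanoma label. The members of this list went in opposite directions. GATA3, a luminal transcription factor, had 7, 1 and 0 counts in Control sh against 1580, 1334 and 1873 in VprBP sh, whereas UPK1B, a uroplakin, had 500, 641 and 709 against 0 in each, and KRT17, a basal keratin, 39540, 36363 and 42056 against 471, 327 and 416. CDKN2A had 0 counts in every Control sh sample and 2059, 3479 and 4443 in VprBP sh, and 46.4% of all genes tested were called in either direction. Whether both groups are the same line was not tested, and the knockdown and any other difference between their cells cannot be told apart in this design. In each group, replicates 2 and 3 were closer to each other (chi-square per degree of freedom 2.50 and 2.36) than to replicate 1 (17.6 to 29.1).

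In VprBP sh cells a larger part of all counts fell on mitochondrial genes. The share was 1.97, 1.96 and 1.98% in Control sh replicates 1, 2 and 3 and 4.15, 4.10 and 4.48% in VprBP sh replicates 1, 2 and 3. Each VprBP sh library thus lay above each Control sh library, and the Control sh libraries hardly differed among themselves. The means were 1.97% ± 0.0146 and 4.24% ± 0.209 (SD, n = 3), a ratio of 2.15. The exact 95% binomial intervals of single libraries were narrower than these spreads, for example 1.97% to 1.98% in Control sh replicate 1 and 4.14% to 4.16% in VprBP sh replicate 1, and they cover counting error only. From a share, more mitochondrial RNA per cell and less nuclear RNA per cell cannot be told apart. The copy number of mitochondrial DNA was not measured.

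All classes of transcript contributed to the larger share. The mRNAs of complex IV, the terminal oxidase, took 0.970, 0.940 and 0.945% of all counts in Control sh against 2.06, 2.07 and 2.27% in VprBP sh. Those of complex I, which oxidises NADH, took 0.643, 0.654 and 0.659% against 1.29, 1.25 and 1.37%. These 2 classes made up most of the difference. MT-CYB, the only mitochondrial mRNA for complex III, took 0.0997% ± 0.000768 and 0.219% ± 0.00873 (SD, n = 3). The mRNAs of ATP synthase had the lowest ratio, of 1.43 between the mean shares, and the rRNAs the highest, 3.34.

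**Figure D1:**
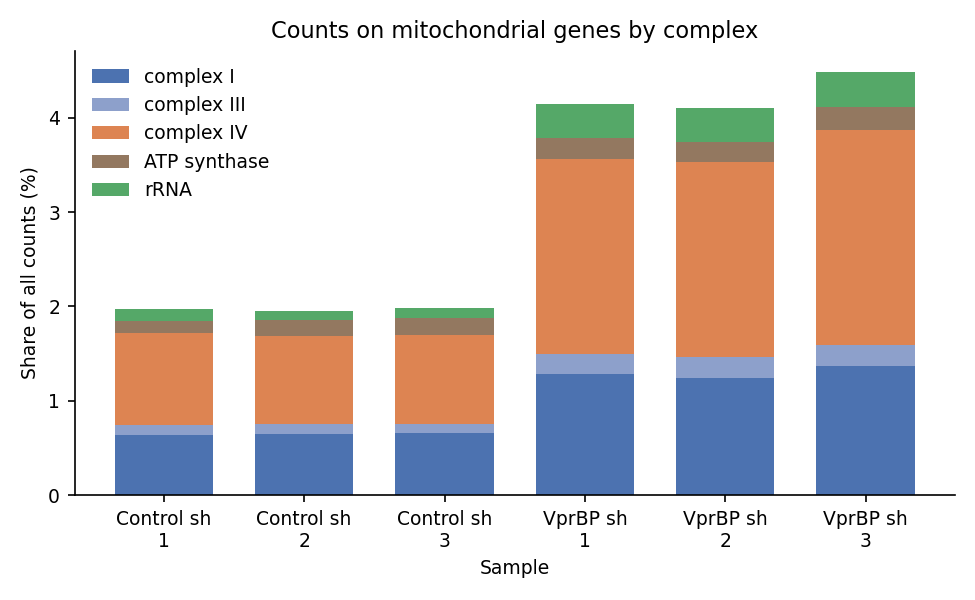
Share of all counts in percent (vertical axis) on mitochondrial genes in each of the 6 samples (horizontal axis), stacked by complex and rRNA. The 3 Control sh bars end between 1.96% and 1.98% and the 3 VprBP sh bars between 4.10% and 4.48%, with complex IV as the tallest segment in each bar.

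Gene by gene, the differences were far from uniform. Log2 fold changes with upper quartile scaling, the scaling named in the study's methods, ran from 0.12 in MT-ND3 to 1.66 in MT-RNR2, with a median of 0.75 over the 15 genes, beside 0.08 over the 16756 genes tested. All 15 passed the filter on low counts, and the fewest counts of any of them in a sample was 271. Of the 15, 5 met the call rule (false discovery rate below 0.05 in edgeR, more than 2-fold), all higher in VprBP sh, where the same rule called 24.5% of all genes tested as higher. The normalized counts (scaled by the upper quartile) of the groups did not overlap in 14 of the 15, higher in VprBP sh, beside 42.2% of all genes tested with VprBP sh higher and 79.5% in either direction. Since this contrast chose the genes, nothing is read from these counts. The scaling matters for the size of the differences. With library size alone the median over the 15 genes was 0.96, and that over all genes moved to 0.29. The distance between these medians was 0.66 to 0.67 under each of the 4 scalings tried. A scaling shifts all genes of a library alike, so this distance can hardly change and is no support.

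The complex I genes differed widely among themselves. MT-ND1 (ENSG00000198888.2, chrM:3307-4262), a subunit of the membrane arm near the quinone site, had 606, 607 and 622 CPM in Control sh against 1686, 1523 and 1669.8 in VprBP sh. The replicates of Control sh lay very close together, and its log2 fold change was 1.198 (standard error 0.08). MT-ND2 (ENSG00000198763.3, chrM:4470-5511), its neighbour on the same precursor and also a membrane arm subunit, had 994, 1193 and 1246 CPM in Control sh against 1663, 1454 and 1580.0 in VprBP sh. Here the groups came close to each other, with a log2 fold change of 0.24 (standard error 0.10). It was 0.15 without Control sh replicate 1, 0.12 with DESeq2, 0.14 with TMM and 0.45 with library size alone. The per-kilobase ratio of MT-ND1 to MT-ND2 was accordingly 0.665, 0.555 and 0.544 in Control sh against 1.11, 1.14 and 1.15 in VprBP sh, without overlap.

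MT-ND4 (ENSG00000198886.2, chrM:10760-12137), one of the proton-pumping membrane subunits, was the complex I mRNA with the most counts. It had 3241, 3201 and 3242 CPM in Control sh against 5964, 5942 and 6485 in VprBP sh, with a log2 fold change of 0.71 (standard error 0.08). MT-ND5 (ENSG00000198786.2, chrM:12337-14148), another of the proton-pumping subunits, had 1133, 944 and 835 CPM in Control sh against 2274, 2563 and 2767 in VprBP sh. In Control sh its highest value was in replicate 1, far below the lowest VprBP sh library, and the log2 fold change was 1.17 (standard error 0.13). MT-ND6 (ENSG00000198695.2, chrM:14149-14673) is the only mRNA on the other strand. It had 207, 227 and 192 CPM in Control sh against 602, 557 and 634 in VprBP sh, a log2 fold change of 1.31 (standard error 0.09), the largest of the mRNAs. The groups were far apart and the replicates of each lay close together. Whether the counts of MT-ND6 come from its own strand alone was not tested. MT-ND5 and MT-ND6 meet at the boundary printed above, and the per-kilobase ratio of the pair, 1.58, 1.21 and 1.26 in Control sh against 1.09, 1.33 and 1.26 in VprBP sh, overlapped between the groups.

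The short complex I mRNAs varied most between replicates. MT-ND3 (ENSG00000198840.2, chrM:10059-10404), a small membrane subunit, had 172, 259.9 and 315 CPM in Control sh against 357, 267 and 313 in VprBP sh. It was the only one of the 15 whose groups overlapped, and its log2 fold change of 0.12 (standard error 0.19) was -0.09 without Control sh replicate 1 and -0.0013 with DESeq2. MT-ND4L (ENSG00000212907.2, chrM:10470-10766), likewise a small membrane subunit, had 79.6, 107 and 138 CPM in Control sh against 329.8, 166 and 217 in VprBP sh. VprBP sh replicate 1 held by far the highest value here, and the log2 fold change of 0.92 (standard error 0.25) ran from 0.61 to 1.13 over the alternatives tried. The lowest of them was the fit without VprBP sh replicate 1, and the call rule was met without Control sh replicate 3 (1.12) and without VprBP sh replicate 2 (1.11). Although MT-ND4L shares its mRNA with MT-ND4, the per-kilobase ratio of MT-ND4 to MT-ND4L ranged from 5.05 to 8.78 in Control sh and from 3.90 to 7.73 in VprBP sh.

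MT-CYB (ENSG00000198727.2, chrM:14747-15887) encodes cytochrome b, which carries the quinone sites of complex III. It had 1006, 991 and 994 CPM in Control sh against 2129.9, 2144 and 2288 in VprBP sh, and a log2 fold change of 0.92 (standard error 0.08). Its replicates were among the most alike, with a coefficient of variation of 0.770% in Control sh against 3.99% in VprBP sh.

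The complex IV genes encode the catalytic core of cytochrome c oxidase, and they too moved unequally. MT-CO1 (ENSG00000198804.2, chrM:5904-7445), the subunit that holds the oxygen-reducing centre, had 5370.0, 4391 and 4307 CPM in Control sh against 12097, 12595 and 13556 in VprBP sh. It ranked 3, 6 and 6 by counts among all genes in the Control sh libraries and 1 in every VprBP sh library. Its log2 fold change was 1.23 (standard error 0.11). MT-CO2 (ENSG00000198712.1, chrM:7586-8269), the subunit that takes electrons from cytochrome c, had 2237, 2573 and 2726 CPM in Control sh against 4634, 4212 and 4867 in VprBP sh, with a log2 fold change of 0.65 (standard error 0.10). For MT-CO3 (ENSG00000198938.2, chrM:9207-9990), a membrane subunit without redox centres, the values were 2096, 2432 and 2415 CPM in Control sh against 3876, 3875 and 4272 in VprBP sh, with a log2 fold change of 0.58 (standard error 0.09). MT-CO2 and MT-CO3 thus had smaller fold changes than MT-CO1 in the same libraries, and the per-kilobase ratio of MT-CO1 to MT-CO3 was 1.30, 0.918 and 0.907 in Control sh against 1.59, 1.65 and 1.61 in VprBP sh. Control sh replicate 1 lay between the other Control sh libraries and the VprBP sh libraries in this ratio.

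Of the ATP synthase genes, MT-ATP6 (ENSG00000198899.2, chrM:8527-9207), the subunit that forms the proton path, had 1275, 1671 and 1770.2 CPM in Control sh against 2195, 2133 and 2409 in VprBP sh. Control sh replicate 1 was the lowest library, and the log2 fold change was 0.30 (standard error 0.12). It was 0.18 without this library, 0.18 with DESeq2 and 0.51 with library size alone. MT-ATP8 (ENSG00000228253.1, chrM:8366-8572), a small subunit of the membrane part, had only 13.1, 17.0 and 18.2 CPM in Control sh against 26.9, 34.7 and 32.5 in VprBP sh, with a log2 fold change of 0.75 (standard error 0.15). Per kilobase, MT-ATP6 had 29.6, 29.8 and 29.5 times the counts of MT-ATP8 in Control sh against 24.8, 18.7 and 22.5 times in VprBP sh, although both lie on a joint mRNA, and how reads over the shared bases were assigned is not given in the sources used here.

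The rRNAs, which form the core of the mitochondrial ribosome, went apart from each other. MT-RNR2 (ENSG00000210082.2, chrM:1671-3229), the large-subunit 16S rRNA, had 1104, 780.3 and 825 CPM in Control sh against 3290.5, 3236 and 3417 in VprBP sh. With a log2 fold change of 1.66 (standard error 0.14) it was the gene with the largest difference of the 15. MT-RNR1 (ENSG00000211459.2, chrM:648-1601), the small-subunit 12S rRNA, had 205, 164 and 200.1 CPM in Control sh against 333, 335 and 338 in VprBP sh and a log2 fold change of 0.61 (standard error 0.10). The VprBP sh libraries lay close together in both genes. The genes are parted only by MT-TV, as printed above, and the per-kilobase ratio of MT-RNR2 to MT-RNR1 was 3.30, 2.91 and 2.52 in Control sh against 6.04, 5.91 and 6.18 in VprBP sh. Because rRNAs depend on short or internal A stretches for poly(A) capture, their counts are not a measure of ribosome content.

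**Figure D2:**
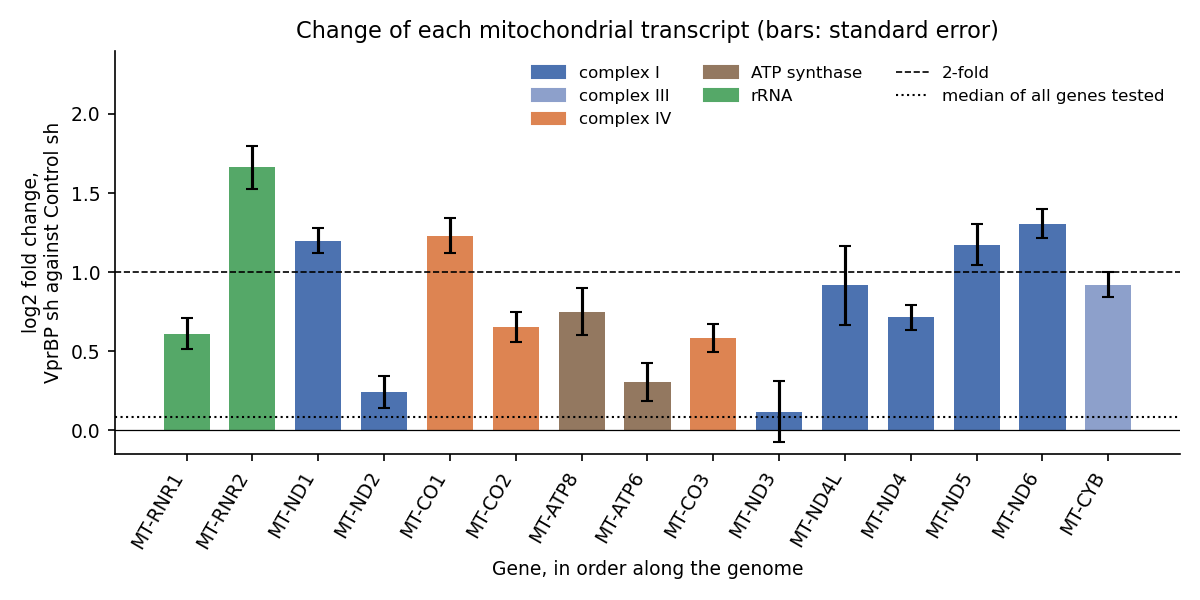
Log2 fold change of VprBP sh against Control sh with upper quartile scaling (vertical axis) for the 15 genes in order along the mitochondrial genome (horizontal axis), coloured by complex, with standard errors as error bars. MT-RNR2, MT-ND1, MT-CO1, MT-ND5 and MT-ND6 pass the dashed 2-fold line, while MT-ND3, MT-ND2 and MT-ATP6 have the shortest bars and lie nearest to the dotted median of all genes tested.

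Seen as composition, the pool of mitochondrial counts was made up differently in the groups. As a share of all mitochondrial counts, 5 genes were higher in each VprBP sh library than in each Control sh library (MT-RNR2, MT-ND1, MT-CO1, MT-ND6 and MT-CYB), 7 were lower (MT-RNR1, MT-ND2, MT-CO2, MT-ATP6, MT-CO3, MT-ND3 and MT-ND4) and 3 overlapped. Among all genes tested, the normalized counts of 79.5% did not overlap in either direction, a measure unlike a share within the pool. No background for such shares is given, and nothing is read from the number of genes apart. Shares within a pool depend on each other, so gains of some genes lower the shares of others. All 15 genes had positive log2 fold changes with upper quartile scaling, those with lower shares included. MT-CO1 took 27.2, 22.4 and 21.7% of mitochondrial counts in Control sh against 29.2, 30.7 and 30.2% in VprBP sh. MT-ND4 took 16.4, 16.4 and 16.3% against 14.4, 14.5 and 14.5%, with hardly any spread within a group. MT-RNR2 went from 4.58% ± 0.883 to 7.81% ± 0.170 (SD, n = 3), MT-ND2 from 5.80% ± 0.672 to 3.69% ± 0.276, and MT-ATP6 from 7.97% ± 1.32 to 5.29% ± 0.0871. MT-CYB, whose fold change was close to that of the whole pool, held 5.06% ± 0.0433 and 5.15% ± 0.0631.

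The complexes also took unequal parts of the pool in the groups. Complex I mRNAs took 33.1% ± 0.438 of mitochondrial counts in Control sh against 30.6% ± 0.364 in VprBP sh (SD, n = 3), and complex IV mRNAs 48.3% ± 0.802 and 50.2% ± 0.473. ATP synthase mRNAs took 6.53, 8.63 and 9.01% against 5.36, 5.28 and 5.44%, and rRNAs 6.63, 4.83 and 5.16% against 8.74, 8.70 and 8.37%. These ranges did not overlap, and the ratio of the mean shares was 0.666 for ATP synthase and 1.55 for the rRNAs. As the only mRNA of the L strand precursor, MT-ND6 made up 1.12, 1.22 and 1.02% of mRNA counts in Control sh against 1.59, 1.49 and 1.54% in VprBP sh. Its counts may include transcripts of the other strand.

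Control sh replicate 1 stood apart in composition though not in the total share. In 11 of the 15 genes its share lay outside those of Control sh replicates 2 and 3 on the side of the VprBP sh mean, as in MT-CO1, MT-RNR2, MT-ATP6 and MT-ND2. These shares depend on each other and no such count over all genes is given, so nothing is read from it. Over all genes, chi-square per degree of freedom was 17.6 and 20.9 for Control sh replicate 1 against replicates 2 and 3, and 2.50 between the other two. Between members of the pool, chi-square per degree of freedom was 482 and 711 for Control sh replicate 1 against replicates 2 and 3, and 51.2 between the other two. In VprBP sh the same values were 189 and 145 against 29.8. Without Control sh replicate 1, 6 genes had higher shares in each VprBP sh library, 8 had lower ones and 1 overlapped, and without VprBP sh replicate 1 the numbers were 6, 7 and 2. Leaving out a library can only narrow the range of a group. Genes already apart thus stay apart, and these numbers are no support for the difference in composition.

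**Figure D3:**
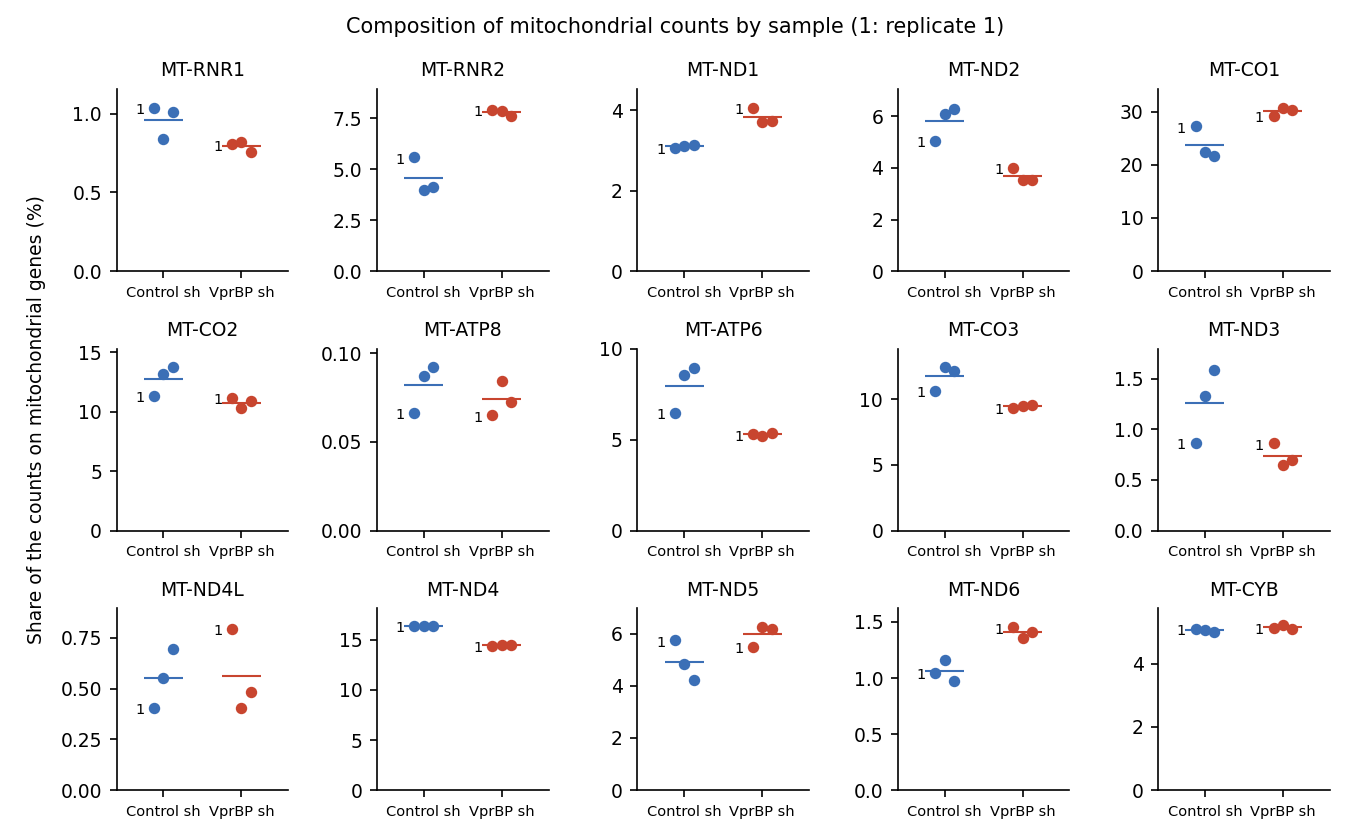
Share of the counts on mitochondrial genes in percent (vertical axes, each from 0) for each gene, by sample and group (horizontal axes), with group means as lines and replicate 1 of each group marked. In MT-CO1 and MT-RNR2 replicate 1 of Control sh sits between the other Control sh libraries and VprBP sh, whereas MT-ND4 and MT-CYB hardly vary within a group.

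Per length, the order of levels was similar in both groups. In Control sh the highest were MT-CO2 with 3673 ± 366 CPM per kilobase, MT-CO1 with 3041 ± 383 and MT-CO3 with 2952 ± 242 (SD, n = 3), and the ranges of these neighbours overlapped. MT-ND4 with 2343 ± 17.2 and MT-ATP6 with 2308 ± 385 came next and overlapped as well. In VprBP sh MT-CO1 led with 8268 ± 481, ahead of MT-CO2 with 6683 ± 485 and MT-CO3 with 5111 ± 292, and no neighbours among the first 8 genes overlapped. MT-RNR2 went from place 10 to place 6. MT-RNR1 and MT-ATP8 were the lowest in both groups, at 199 ± 23.1 and 77.9 ± 13.1 in Control sh against 352 ± 2.58 and 152 ± 19.4 in VprBP sh. Spearman's rho between the mean levels of both groups was 0.92 across the 15 genes, which share libraries and are not independent.

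**Figure D4:**
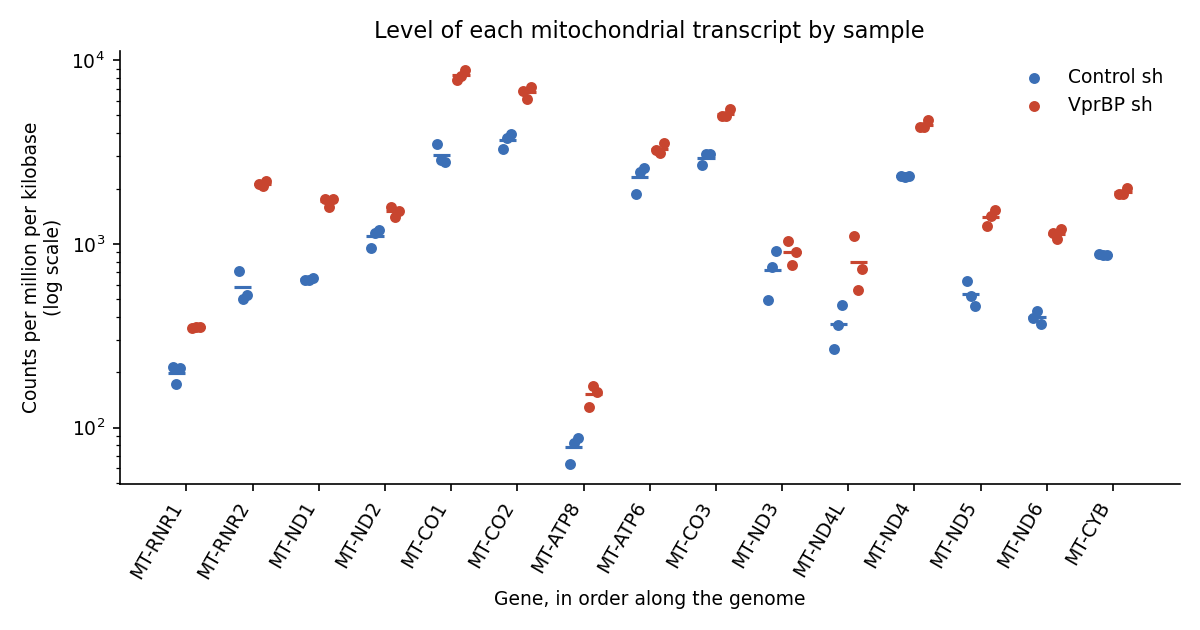
CPM per kilobase of gene length on a log axis (vertical) for each of the 15 genes in order along the mitochondrial genome (horizontal), with a point per sample and a line at each group mean. The VprBP sh points lie above the Control sh points in 14 genes, and in MT-ND3 the groups overlap.

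Features that the rule did not use went only loosely with the fold changes. Across the 15 genes Pearson's r with the log2 fold change was 0.47 for gene length, 0.23 for GC content and -0.05 for position along the genome, and Spearman's rho was 0.39, 0.11 and 0.06. These are descriptions over genes of the same libraries. Among the genes with larger differences were short and long ones, MT-ND6 with 525 bases and MT-ND5 with 1812, and MT-RNR1 and MT-RNR2, which follow each other, differed in fold change.

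Parts of the mitochondrial genome have near-identical copies on nuclear chromosomes, and reads from these parts cannot be placed with certainty. Of all 50-base windows within MT-CO1, 50.6% occurred letter for letter on a nuclear chromosome of hg38, and this was 46.7% for MT-ATP6, 43.6% for MT-RNR1 and 43.6% for MT-ND2. It was 3.54% for MT-ND4, 1.65% for MT-CYB and 0% for MT-ND3 and MT-ND4L. The 3 copies with the most counts, MTATP6P1, MTCO1P12 and MTCO2P12, lie side by side on chromosome 1. The only mitochondrial genes with fractional estimated counts in the table were MT-ND1, MT-ND2, MT-CO1 and MT-ATP6. The share of such windows had a Pearson's r of -0.16 with the log2 fold change across the 15 genes.
The copy with the most counts, MTATP6P1 (chr1:633696-634376), is 98.5% identical to MT-ATP6 over 681 bases. The 60 bases in which they differ most are shown on the plus strand with the differing bases in capitals, to show how little sets a read from either gene apart.
MT-ATP6 (chrM:8642-8701): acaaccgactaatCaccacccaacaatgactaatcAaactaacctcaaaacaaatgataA
MTATP6P1 (chr1:633811-633870): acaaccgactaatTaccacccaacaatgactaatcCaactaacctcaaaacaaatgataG
MTATP6P1 had 789, 1422 and 1830 counts in Control sh against 2831, 2115 and 3330 in VprBP sh. MTCO1P12 (chr1:631074-632616, 98.6% identical to MT-CO1) had 419, 431 and 553 against 1123, 1664 and 2149, and MTCO2P12 (chr1:632757-633438, 98.0% identical to MT-CO2) had 112, 184 and 208 against 176, 422 and 577. All 18 such copies in the table together held 0.383% to 0.642% of the counts of members and copies in a sample, and with them added the mitochondrial share was 1.98% in Control sh against 4.27% in VprBP sh. As copies and members may share reads, the copies are no independent measure.

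The nuclear genes of mitochondrial gene expression were read out in lists. These lists were chosen with earlier results of the same libraries known, and they are tested in the contrast that chose the 15 genes. Their p-values are thus no independent support. Over 13 lists of nuclear mitochondrial and stress genes, 206 genes were tested (named genes are given as mean ± SD of 3 Control sh and then 3 VprBP sh libraries), and 29 were called higher and 18 lower in VprBP sh by edgeR, or 14.1% and 8.74% of them. Across all genes tested 24.5% were called higher and 22.0% lower. The lean upwards depended on the scaling, with 22 higher and 22 lower in DESeq2, 22 and 21 with TMM and 38 and 13 with library size alone, and it was 24 and 17 without Control sh replicate 1. The median log2 fold change of the 206 genes was 0.13, beside 0.08 for all genes and 0.75 for the mitochondrial transcripts.

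Among 10 genes for transcription of mitochondrial DNA, 1 passed the call rule upwards and 1 downwards, around a median of -0.24 on the log2 scale. POLRMT, the mitochondrial RNA polymerase, had 1572 ± 96.9 and 1408 ± 143 normalized counts (log2 difference -0.16, standard error 0.10, edgeR adjusted p = 0.173). TFAM, which packages mitochondrial DNA and opens its promoters, had 2213 ± 246 and 1739 ± 251 normalized counts (log2 difference -0.35, standard error 0.12, edgeR adjusted p = 0.0253), and TFB2M, the promoter-melting partner of POLRMT, had 398 ± 57.3 and 328 ± 28.1 normalized counts (log2 difference -0.28, standard error 0.14, edgeR adjusted p = 0.0893). None of these core genes was called. TEFM, the elongation factor, fell, with 416 ± 92.1 and 182 ± 19.5 normalized counts (log2 difference -1.19, standard error 0.18, edgeR adjusted p = 0.000183), a call lost with library size alone (-0.98). MTRES1, a mitochondrial transcription rescue factor, rose, with 121 ± 32.2 and 347 ± 24.8 normalized counts (log2 difference 1.51, standard error 0.19, edgeR adjusted p = 5.90e-05).

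For replication of mitochondrial DNA, 2 passed the call rule upwards and 2 downwards, around a median of -0.07 on the log2 scale, of 13 genes tested. POLG, the catalytic subunit of the DNA polymerase, had 1543 ± 88.4 and 1907 ± 151 normalized counts (log2 difference 0.31, standard error 0.09, edgeR adjusted p = 0.0113), below the 2-fold cutoff. TWNK, the helicase, had 389 ± 42.1 and 340.2 ± 7.89 normalized counts (log2 difference -0.20, standard error 0.12, edgeR adjusted p = 0.16). Genes called were POLG2, the accessory subunit of the polymerase, with 276 ± 30.9 and 137 ± 14.5 normalized counts (log2 difference -1.01, standard error 0.15, edgeR adjusted p = 0.000189), and MGME1, a nuclease that trims replication ends, with 1229 ± 68.2 and 587 ± 85.7 normalized counts (log2 difference -1.07, standard error 0.12, edgeR adjusted p = 2.57e-05), both lower. Both calls lie near the cutoff and were lost with library size alone (-0.80 and -0.85). That of POLG2 was also lost without Control sh replicate 2, Control sh replicate 3 or VprBP sh replicate 3 (-0.97 to -0.94) and with replicates 2 and 3 summed, and that of MGME1 without VprBP sh replicate 2 (-0.98). RNASEH1, which removes RNA primers, was higher with 878 ± 33.2 and 2032 ± 128 normalized counts (log2 difference 1.21, standard error 0.09, edgeR adjusted p = 1.09e-06), as was EXOG, a mitochondrial nuclease, with 51.6 ± 15.8 and 138 ± 4.87 normalized counts (log2 difference 1.41, standard error 0.23, edgeR adjusted p = 0.000339).

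Of 35 genes that process, modify or degrade mitochondrial RNA, 4 passed the call rule upwards and 1 downwards, around a median of 0.24 on the log2 scale. LRPPRC, which binds and stabilises mitochondrial mRNAs, had 3928 ± 185 and 5392 ± 782 normalized counts (log2 difference 0.46, standard error 0.11, edgeR adjusted p = 0.00337). SLIRP, its partner, had 551 ± 131 and 488 ± 49.98 normalized counts (log2 difference -0.18, standard error 0.17, edgeR adjusted p = 0.36). The components of the RNA-degrading complex were not called, PNPT1 with 587 ± 32.9 and 984 ± 199 normalized counts (log2 difference 0.74, standard error 0.14, edgeR adjusted p = 0.000967) and SUPV3L1 with 799 ± 87.5 and 993 ± 114 normalized counts (log2 difference 0.31, standard error 0.12, edgeR adjusted p = 0.0384). ERAL1, an assembly factor that binds the 12S rRNA, fell, with 3324 ± 202 and 1079.6 ± 26.3 normalized counts (log2 difference -1.62, standard error 0.08, edgeR adjusted p = 1.00e-07). MRM3, which methylates the 16S rRNA, rose, with 184 ± 10.5 and 474 ± 23.8 normalized counts (log2 difference 1.36, standard error 0.12, edgeR adjusted p = 3.64e-06), and FASTKD1, an RNA-binding protein of the mitochondria, rose, with 222 ± 28.2 and 537 ± 37.6 normalized counts (log2 difference 1.27, standard error 0.13, edgeR adjusted p = 1.30e-05).

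Genes that supply nucleotides to mitochondria split in both directions, as 3 passed the call rule upwards and 4 downwards, around a median of 0.02 on the log2 scale, of 12 genes. SUCLA2, a succinyl-CoA ligase subunit tied to mitochondrial DNA maintenance, had 2412 ± 397 and 441 ± 25.2 normalized counts (log2 difference -2.45, standard error 0.13, edgeR adjusted p = 1.64e-07), and TYMP, thymidine phosphorylase, had 901 ± 266 and 68.5 ± 32.2 normalized counts (log2 difference -3.70, standard error 0.32, edgeR adjusted p = 4.30e-06). SLC25A33, a pyrimidine nucleotide carrier, had 151 ± 25.2 and 631 ± 8.80 normalized counts (log2 difference 2.06, standard error 0.14, edgeR adjusted p = 7.00e-07), and SLC25A4, an ADP/ATP carrier, had 331 ± 19.8 and 803 ± 53.5 normalized counts (log2 difference 1.28, standard error 0.11, edgeR adjusted p = 3.19e-06). The ADP/ATP carriers with more counts went in opposite directions. SLC25A5 was called higher, with 10907 ± 844 and 22604 ± 168 normalized counts (log2 difference 1.05). SLC25A6 was called lower, with 5755 ± 417 and 2795 ± 414 normalized counts (log2 difference -1.04). Of 10 regulators of mitochondrial biogenesis tested, 1 passed the call rule upwards and 2 downwards, around a median of -0.38 on the log2 scale. PPARGC1B, a coactivator of the PGC-1 family, rose, with 205 ± 4.28 and 571 ± 52.2 normalized counts (log2 difference 1.48, standard error 0.12, edgeR adjusted p = 2.20e-06), while the lysosomal and metabolic regulators TFEB, with 293 ± 44.3 and 47.5 ± 9.39 normalized counts (log2 difference -2.61, standard error 0.20, edgeR adjusted p = 1.80e-06), and TFE3, with 1836 ± 218 and 915 ± 33.9 normalized counts (log2 difference -1.004, standard error 0.10, edgeR adjusted p = 1.36e-05), fell. The call of TFE3 was lost with limma-voom, with the replicate block, with 10 or more counts in each library, with library size alone (-0.79), and without Control sh replicate 1 (-0.91) or VprBP sh replicate 3 (-0.98).

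The nuclear subunits of the complexes that the mitochondrial mRNAs feed had lower median fold changes than the mRNAs of the mitochondrial genome. The mitochondrial genes were put forward for their higher share in this same contrast, so nothing is read from this difference. For complex I, 9 passed the call rule upwards and 0 downwards, around a median of 0.44 on the log2 scale, of 37 genes, beside a median of 0.92 for the 7 mitochondrial mRNAs. NDUFV3, an accessory subunit of the NADH-binding module, had 313 ± 0.105 and 915 ± 48.9 normalized counts (log2 difference 1.55, standard error 0.10, edgeR adjusted p = 4.93e-07), and NDUFA1, an accessory membrane subunit, had 384 ± 78.2 and 1052 ± 208 normalized counts (log2 difference 1.45, standard error 0.18, edgeR adjusted p = 5.41e-05). For complex III, 0 passed the call rule upwards and 0 downwards, around a median of 0.54 on the log2 scale, of 9 genes. These ran from -0.51 to 0.93, beside 0.92 for MT-CYB, a single gene. Of these 9, 8 genes had an unadjusted p under 0.05 in edgeR, and DESeq2 and limma-voom called 0 and 0. The share of all genes tested under this p is not given here, so nothing is read from the 8. For complex IV, 2 passed the call rule upwards and 1 downwards, around a median of 0.13 on the log2 scale, of 12 genes, beside 0.65 for the 3 mitochondrial mRNAs. NDUFA4 and COX7B, small subunits of this complex, rose, with 1112 ± 121 and 2355 ± 147 normalized counts (log2 difference 1.08, standard error 0.10, edgeR adjusted p = 7.16e-06) and 695 ± 141 and 1433 ± 214 normalized counts (log2 difference 1.04, standard error 0.16, edgeR adjusted p = 0.000252), while COX6B2, a testis-type isoform, had 105, 75 and 115 counts in Control sh against 2, 3 and 4 in VprBP sh. Neither NDUFA4 nor COX7B was called with TMM (0.98 and 0.95), with DESeq2 (0.96 and 0.92) or without Control sh replicate 1 (0.99 and 0.88), nor COX7B without VprBP sh replicate 1 (0.92). For ATP synthase, 2 passed the call rule upwards and 0 downwards, around a median of 0.16 on the log2 scale, of 18 genes. The pair from the mitochondrial genome had a median of 0.53, from 0.30 for MT-ATP6 and 0.75 for MT-ATP8. These 2 lie on a joint mRNA and MT-ATP6 had far more counts, so the median does not stand for separate RNAs. ATP5MG, a membrane subunit, was at 1166 ± 60.3 and 3281 ± 266 normalized counts (log2 difference 1.49, standard error 0.09, edgeR adjusted p = 3.34e-07). ATP5PO, a stalk subunit, was at 1680.3 ± 239.7 and 3377 ± 120.3 normalized counts (log2 difference 1.01, standard error 0.11, edgeR adjusted p = 1.97e-05). The call of ATP5PO was lost with TMM (0.91), with DESeq2 (0.89), with no filter on low counts, and without Control sh replicate 1 (0.89) or VprBP sh replicate 1 (0.98). Complex II has no mitochondrially encoded subunit. Of its 4 genes, 1 passed the call rule upwards and 0 downwards, around a median of -0.18 on the log2 scale, the gene called being SDHD, a membrane anchor, with 1405 ± 179 and 3229 ± 175 normalized counts (log2 difference 1.199, standard error 0.10, edgeR adjusted p = 4.34e-06). These differences between medians were not tested. Among 25 nuclear genes of other mitochondrial compartments, such as import receptors, porins and matrix chaperones, 0 passed the call rule upwards and 0 downwards, around a median of -0.11 on the log2 scale. Here 15 genes had an unadjusted p under 0.05 in edgeR, and DESeq2 and limma-voom called 2 and 0. The call rule, which is stricter than this p, was met by 46.4% of all genes tested in either direction. Nothing is thus read from the 15.

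**Figure D5:**
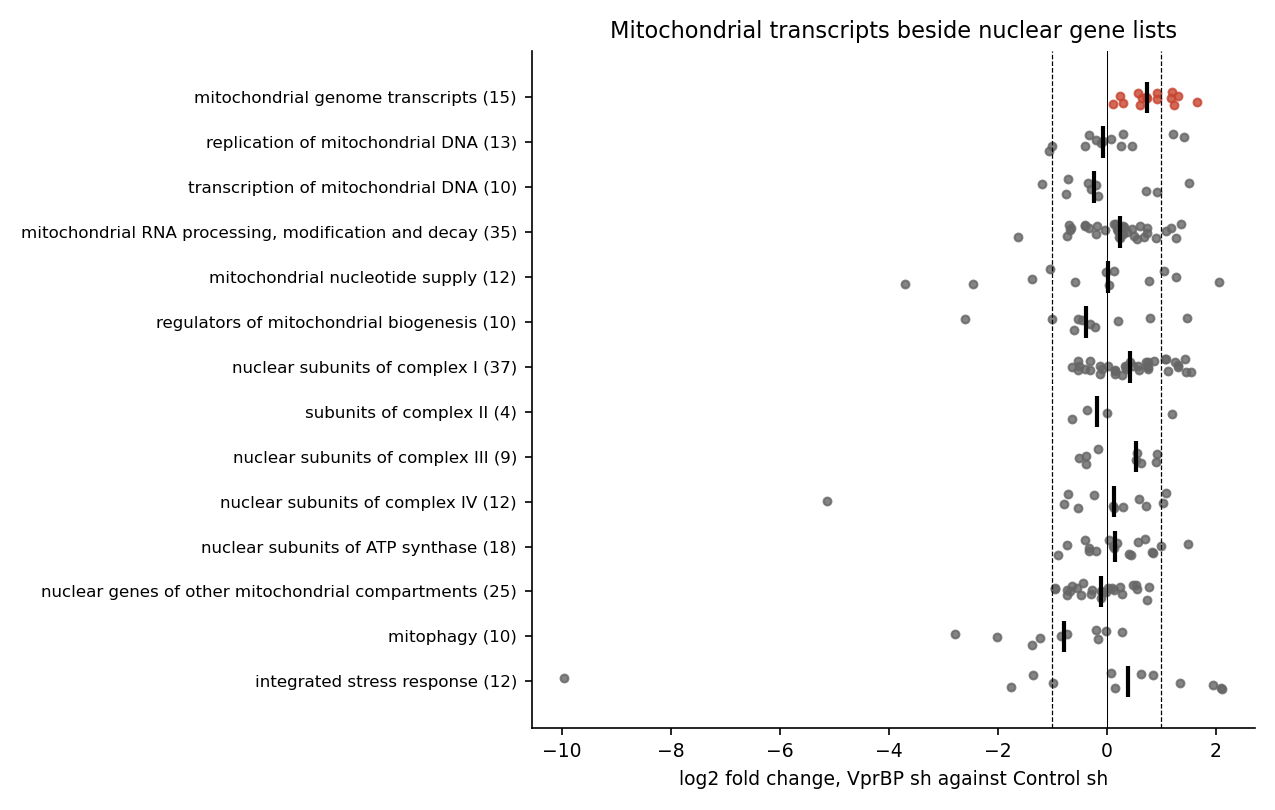
Log2 fold change of VprBP sh against Control sh (horizontal axis) for each tested gene of the mitochondrial genome (top row) and of 13 lists of nuclear genes (rows, number of genes in brackets), with list medians as black bars and 2-fold marked by dashed lines. The top row has its median at 0.75 and the list of other mitochondrial compartments at -0.11, and the fitted values farthest to the left, of COX6B2 and GDF15, come from groups with few or no counts and are no measure of size.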

How the data were processed

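RNA-seq libraries of 3 Control sh and 3 VprBP sh samples were analysed, grouped by the sample titles. The labels name a SMARTER mRNA kit, the methods a strand-specific KAPA kit with poly(A) capture. Per the methods, the authors aligned single-end 50-base reads to hg38 with STAR and quantified them per gene in Partek Flow (also named in the submitters' processing notes), and the deposited values are estimated counts per sample without normalization, 59.4% of them whole. The design had been written for counts, and the values were rounded to whole counts. Nothing says that replicates come from separate cultures, so p-values measure only the spread between these samples. CPM values use each sample's total, values per kilobase the gene length of the table, whose Stop lies 1 base past the last base of GENCODE 44. Shares carry exact (Clopper-Pearson) 95% intervals.

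All genes entered edgeR 4.0.16 in R 4.3.3 (quasi-likelihood test, upper quartile factors at quantile 0.75, filter at a minimum count of 10, 16756 genes tested, no replicate block), with Benjamini-Hochberg adjustment. Calls use the cutoffs of the methods, a false discovery rate below 0.05 and more than 2-fold, whose own test (Gene Specific Algorithm) was not run. Standard errors are the log2 fold change over the square root of F. For normalized counts, each library was divided by its scaled upper quartile factor. For 3 counts, the smallest number taken as detected, the level is 0.112 to 0.165 CPM. Alternatives were TMM, library size alone, scaling without chromosome M, DESeq2 1.42.0, limma-voom (limma 3.58.1), other filters, a replicate block and leaving out each library. Summing replicates 2 and 3 and adding nuclear copies were chosen after seeing the data. The tests were tried on simulated data. Windows and identities were computed in Python 3.11.15 with numpy 2.4.6, pandas 2.3.3 and Biopython 1.88 on hg38.

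The members and lists were chosen with earlier results of these data known. Named are all rows of chromosome M, DCAF1, 10 set genes of mitochondrial DNA and RNA upkeep, the 3 nuclear copies with the most counts, and in each list up to 2 called genes per direction with the largest changes, given 100 or more normalized counts on average in the higher group. Genes named outside this rule were chosen after their values were seen.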

Additional observations from a re-analysis of the deposited data

How the results depend on the processing

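Over the alternatives, 116 of 125 values for the main results stayed within their replicate spread or within 1.5 times the count. Asking for 10 or more counts in each library gave 4690 called genes of 13103 tested, against 7778 of 16756, of which 5 were mitochondrial in both. The median log2 fold change of the 15 genes was 0.96 with library size alone and 0.63 with DESeq2, where the median over all genes moved to 0.29 and -0.04. With library size alone 7 mitochondrial genes were called, MT-CYB and MT-ND4L besides the 5. The upregulated share of called genes was 52.7%, and it became 48.8% (TMM), 47.7% (DESeq2) or 60.1% (library size). MT-ND3 was reversed with DESeq2 (-0.0013) and without Control sh replicate 1, and ran from -0.088 to 0.31 when a library was left out. The log2 ratio of the mitochondrial share was 1.02 without the 100 most abundant nuclear genes, against 1.11. For composition, the log2 ratio of complex I was -0.063 over the 13 mRNAs alone and -0.043 per kilobase, that of complex III 0.075 and 0.12, and that of complex IV 0.10 over the mRNAs alone.

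With the replicate block, edgeR called 7686 genes, 5 of them mitochondrial, with a median of 0.75 over the 15. Same-numbered samples did not deviate together (correlations -0.0644, 0.0162 and -0.0527 over 16756 genes), so the numbers are not taken as pairs. Leaving out a library in turn gave 7949 to 8142 called genes, 5 to 6 mitochondrial ones and medians of 0.71 to 0.84. MT-ATP8 had the fewest counts, down to 271 in a library.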

Other observations

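Values of stress and mitophagy genes follow. Across all genes tested, edgeR called 24.5% higher and 22.0% lower. In the integrated stress response, which raises amino acid synthesis when mitochondria or the endoplasmic reticulum are disturbed, 4 passed the call rule upwards and 3 downwards, around a median of 0.39 on the log2 scale, of 12 genes in edgeR. ATF4, the central transcription factor of this response, had 3466 ± 252 and 15021 ± 295 normalized counts (log2 difference 2.12, standard error 0.08, edgeR adjusted p = 2.40e-08), and TRIB3, a pseudokinase it induces, had 1482 ± 41.7 and 6381 ± 38.4 normalized counts (log2 difference 2.11, standard error 0.07, edgeR adjusted p = 1.13e-08). DDIT4, an mTOR inhibitor, had 9397 ± 734 and 2779 ± 1114 normalized counts (log2 difference -1.76, standard error 0.27, edgeR adjusted p = 0.000199), and GDF15, a secreted stress cytokine, had 1814, 1385 and 1561 counts in Control sh against 0, 2 and 3 in VprBP sh, so that members of the same response went in opposite directions. The other 5 genes of the list were not called, among them DDIT3, the factor CHOP.

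Of 10 mitophagy genes tested, by which damaged mitochondria are removed, 0 passed the call rule upwards and 4 downwards, around a median of -0.78 on the log2 scale, and 6 were not called. BNIP3, a mitophagy receptor, had 2734 ± 409 and 673 ± 127 normalized counts (log2 difference -2.02, standard error 0.16, edgeR adjusted p = 1.81e-06), and OPTN, an adaptor, had 3844 ± 537 and 559.6 ± 32.0 normalized counts (log2 difference -2.78, standard error 0.12, edgeR adjusted p = 3.13e-08). No test linked these genes to the mitochondrial transcripts.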
